A study of Homo sapiens with 3 samples.

Results

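The genes described here are 38 DNA repair, checkpoint and replication genes, picked by symbol out of the 57773 genes of the deposited tables. They cover 9 roles: the Fanconi anaemia and BRCA pathway, damage signalling, DNA end resection, non-homologous end joining, repair helicases and remodellers, the MCM helicase, the replication fork, translesion synthesis, and excision, break or mismatch repair. RNA was measured once in each of 3 conditions of MDA-MB-231 tumorspheres, which are spheres of a human triple-negative breast cancer cell line grown without attachment, 24 h after treatment. The first condition carries the genotype label LINC00273 overexpression, a transfected LINC00273-pcDNA-CMV clone that would drive this long non-coding RNA from a viral promoter. The second is M2 at 10 µM, an agent named in the labels by this code alone, on cells labelled with the control genotype. The third is the untreated control, and no library carries a label for an empty vector or for the solvent of M2, so those effects cannot be told apart from the treatments.

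Cells copy their genome at forks that are opened by the MCM helicase, held by the sliding clamp and filled in by DNA polymerases. When a fork stalls or a strand breaks, the kinases ATM and ATR signal the damage, the Fanconi anaemia and BRCA proteins repair the break or crosslink by copying an intact sister strand, and end joining ligates broken ends without a template. G-quadruplexes, four-stranded folds of guanine-rich nucleic acid, are among the obstacles that helicases such as BLM, WRN, BRIP1 and PIF1 are known to unwind.

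LINC00273 itself was listed at 0 reads in the library labelled LINC00273 overexpression, in the M2 library and in the control library. A count of 0 allows at most 1.17, 1.28 and 0.696 CPM (reads relative to the library's unscaled total on genes) in the LINC00273-labelled, M2 and control libraries. The label of the first library could not be checked by its own transcript, and it is called the LINC00273-labelled library throughout. The 3 libraries held 5123199, 4695535 and 8620534 reads on genes, of which RN7SL1 and RN7SK, both abundant small non-coding RNAs, took 42.8%, 39.3% and 54.7%, in the order LINC00273-labelled, M2 and control. VIM, the mesenchymal filament gene of MDA-MB-231 cells, had 8910, 4182 and 11763 reads, while S100A4 and PLAUR, also on the cell line's marker list, had 0, 2 and 2 reads each. The 7 blood markers summed to 6.84 scaled CPM in the LINC00273-labelled library, 1414 in the M2 library and 817 in the control library, and in the M2 and control libraries nearly all of it was globin RNA. The part of these differences between libraries in the values below was not tested.

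With 1 library per condition there is no replicate and no test, so each value below describes these 3 libraries. Ratios are log2 ratios of reads scaled by TMM (trimmed mean of M values), given with a 95% counting interval. The interval covers counting error at most and says nothing of the spread between cultures. Reads amplified by PCR and not tagged with molecular identifiers may copy one molecule, so it may be too narrow for counting error too. A gene counts as measured in a comparison when the 2 libraries together hold at least 20 reads, and as higher or lower when it differs at least 1.5-fold. The comparisons of the LINC00273-labelled and M2 libraries share the control library, so their values are set side by side and not counted as separate evidence. In bulk RNA, fewer cells of a kind and less RNA per cell cannot be told apart.

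The 4 sequences below are shown because they precede the RefSeq start of CHEK1, PCNA, BLM and RFC1, 4 of the 5 members that were higher in the LINC00273-labelled library than in the control with an interval beyond 0. The fifth, ATRX, has no entry in the promoter table used. Each is the 200 bases before the first listed start of the gene, on the gene's strand, from RefSeq on the GRCh38.p14 build. The CHEK1 stretch is chr11:125626029-125626228 on the plus strand and that of PCNA is chr20:5126623-5126822 on the minus strand. GENCODE 29 starts the CHEK1 gene 893 bases before this stretch, which therefore lies inside the gene in that annotation, and the other stretches overlap the annotated gene by 4 (PCNA), 19 (BLM) and 13 bases (RFC1). The BLM stretch is chr15:90717146-90717345 on the plus strand and that of RFC1 is chr4:39366363-39366562 on the minus strand. Capitals mark the CCAAT box, bound by the factor NF-Y, and the E2F-type motifs TTCCCGC and TTTGGCG, each on either strand.
CHEK1: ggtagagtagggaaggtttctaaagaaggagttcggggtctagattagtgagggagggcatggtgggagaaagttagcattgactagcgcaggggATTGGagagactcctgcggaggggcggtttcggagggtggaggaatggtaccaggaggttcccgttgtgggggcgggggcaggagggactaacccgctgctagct
PCNA: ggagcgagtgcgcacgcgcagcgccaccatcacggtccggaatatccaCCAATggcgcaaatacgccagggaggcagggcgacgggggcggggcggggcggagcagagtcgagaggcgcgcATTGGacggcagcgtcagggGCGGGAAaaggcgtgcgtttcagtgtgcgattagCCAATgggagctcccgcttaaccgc
BLM: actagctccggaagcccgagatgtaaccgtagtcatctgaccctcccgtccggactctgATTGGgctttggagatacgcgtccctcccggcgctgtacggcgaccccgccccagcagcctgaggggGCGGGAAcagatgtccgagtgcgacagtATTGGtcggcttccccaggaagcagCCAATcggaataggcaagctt
RFC1: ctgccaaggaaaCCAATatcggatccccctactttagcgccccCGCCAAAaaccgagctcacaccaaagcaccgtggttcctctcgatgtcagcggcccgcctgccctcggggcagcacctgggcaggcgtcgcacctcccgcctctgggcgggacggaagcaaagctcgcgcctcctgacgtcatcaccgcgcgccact
PCNA and BLM each hold 3 CCAAT boxes and 1 match to TTCCCGC, RFC1 holds 1 CCAAT box and 1 match to TTTGGCG, and CHEK1 holds 1 CCAAT box in this window. Promoters of 30 of the 38 members, from 250 bases before to 50 bases after the start, were in the table. A CCAAT box was found in 18 of the 30, or 60.0%, against 35.7% of all 27305 promoters. One or the other E2F-type motif was found in 13 of the 30, or 43.3%, against 8.28% of all promoters. A G-quadruplex pattern, 4 runs of at least 3 guanines with loops of 1 to 7 bases on either strand, was found in 9 of the 30 (30.0%), against 24.1% of all promoters. Those 9 were ATR, BRIP1, MCM2, PCNA, POLH, REV3L, RIF1, RPA1 and TP53BP1. A match is a description of the letters in this window and not a bound site.

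The 38 members held 5289 reads in the LINC00273-labelled library, 5741 in the M2 library and 5529 in the control library. ATRX alone took 23.4%, 32.8% and 17.3% of these. Fewer than 20 reads were found for 10 members in the LINC00273-labelled library, 18 in the M2 library and 15 in the control library, so that many of these genes sit near the limit of what this depth resolves.

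**Figure D1:**
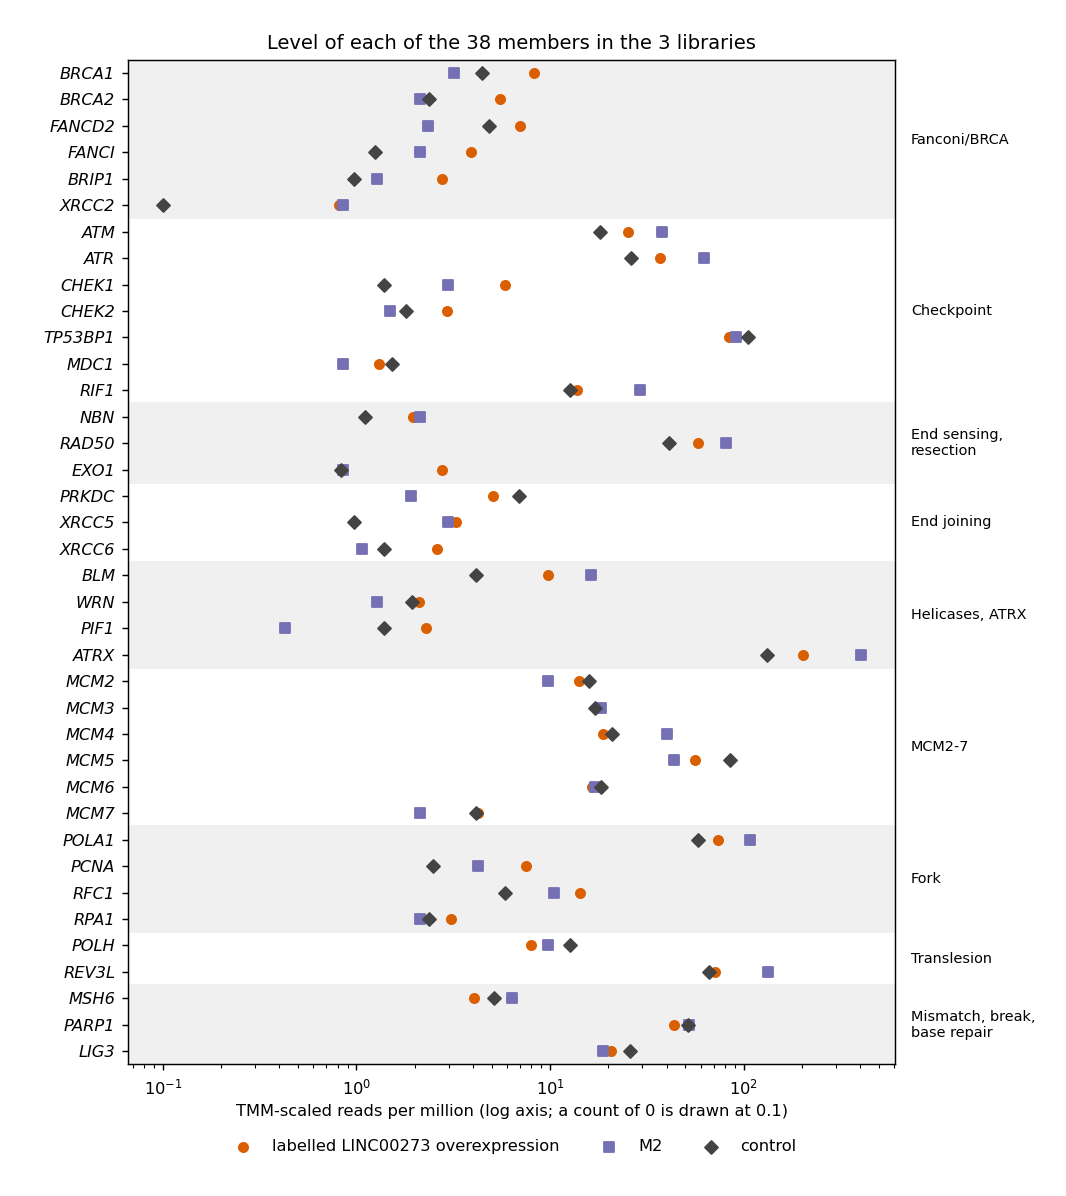
Level of each of the 38 genes in the 3 libraries, in TMM-scaled CPM on a log axis, grouped by role; a gene at 0 reads is drawn at 0.1. ATRX has the highest value of all in each library, and XRCC2 in the control is the point at 0.

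Levels of different genes are compared per kilobase of transcript. ATRX stood first among the 38 in the LINC00273-labelled library at 18.1 scaled CPM divided by the length in kilobases, ahead of POLA1 at 13.4, MCM5 at 12.2 and PARP1 at 11.1. It also led the M2 library at 36.0, ahead of POLA1 at 19.7, PARP1 at 13.2 and REV3L at 12.2. In the control library MCM5 led at 18.6, followed by PARP1 at 13.1, ATRX at 11.9, POLA1 at 10.6 and TP53BP1 at 10.2. The RNA of the Ku subunits was far below these on the same scale, at 5 to 20 reads per gene and library. XRCC5 stood at 0.87 in the LINC00273-labelled library, 0.79 in the M2 library and 0.26 in the control library, and XRCC6 stood at 0.96, 0.39 and 0.51 in the same 3 libraries.

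Against the control, 15 of the 36 members measured were higher in the LINC00273-labelled library and 2 were lower, MCM5 and POLH, with a median log2 ratio of 0.48. Among all 8828 genes measured in that comparison 21.7% were higher and 25.2% were lower, and the median was -0.08. With the interval also beyond 0, 5 members were higher (CHEK1, PCNA, RFC1, BLM and ATRX) and 1 was lower (MCM5), where the shares of all genes were 11.0% and 15.8%. The members higher by that stricter rule are a checkpoint kinase, the sliding clamp, a subunit of the clamp loader, a RecQ helicase and a chromatin remodeller. The remodeller, ATRX, stood near the threshold at 1.52-fold. Its log2 ratio of 0.60 became 0.57, less than 1.5-fold, when the scaling used protein-coding genes only. The members held more higher genes than the table did, but most of their excess lies in genes with few reads. Of the 19 members with 20 to 99 reads over both libraries, 13 were higher and 0 were lower, against 27.5% and 23.5% of all genes at that level. Of the 17 members with 100 reads or more, 2 were higher and 2 were lower, against 16.6% and 26.7%.

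Against the control, 13 of the 30 members measured were higher in the M2 library and 6 were lower, with a median of 0.06. The shares of all 7988 genes were 24.8% and 31.4%, with a median of -0.15. With the interval beyond 0, 9 members were higher (ATM, ATR, RIF1, RAD50, BLM, ATRX, MCM4, POLA1 and REV3L) and 2 were lower (PRKDC and MCM5), against 18.5% and 16.1% of all genes. The 9 hold the apical damage kinases, the strand-break tether RAD50 and the large polymerases for priming and for translesion synthesis. Here the members with 100 reads or more held most of the higher calls, 9 of 17 with a median of 0.90, against 29.4% of all such genes. Of the 13 members with 20 to 99 reads, 4 were higher and 4 were lower, against 18.9% and 42.2% of all genes at that level.

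The M2 library was also set against the LINC00273-labelled library, a comparison in which the control takes no part. Of the 34 members measured, 8 were higher in the M2 library and 12 were lower, with a median of -0.13, against 17.9% and 21.6% of all 7824 genes, with a median of 0.11. With the interval beyond 0, 7 were higher (12.0% of all genes) and 2 were lower, BRCA1 and FANCD2 (6.43% of all genes). The split ran with read level: of the 17 members with 100 reads or more 7 were higher and 0 lower, against 20.2% and 6.17% of all such genes. Of the 17 with 20 to 99 reads 1 was higher and 12 were lower, against 15.3% and 39.7%. All genes moved the same way with read level, with a median of -0.46 at 20 to 50 reads and of 0.42 at 1000 reads or more. Relative to genes of like GC content and read level, 4 of the 34 members were higher and 9 were lower, with a median of -0.18. The shares of all genes on that scale were 14.3% and 16.5%. The part of read level in the members' values was not tested further.

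**Figure D2:**
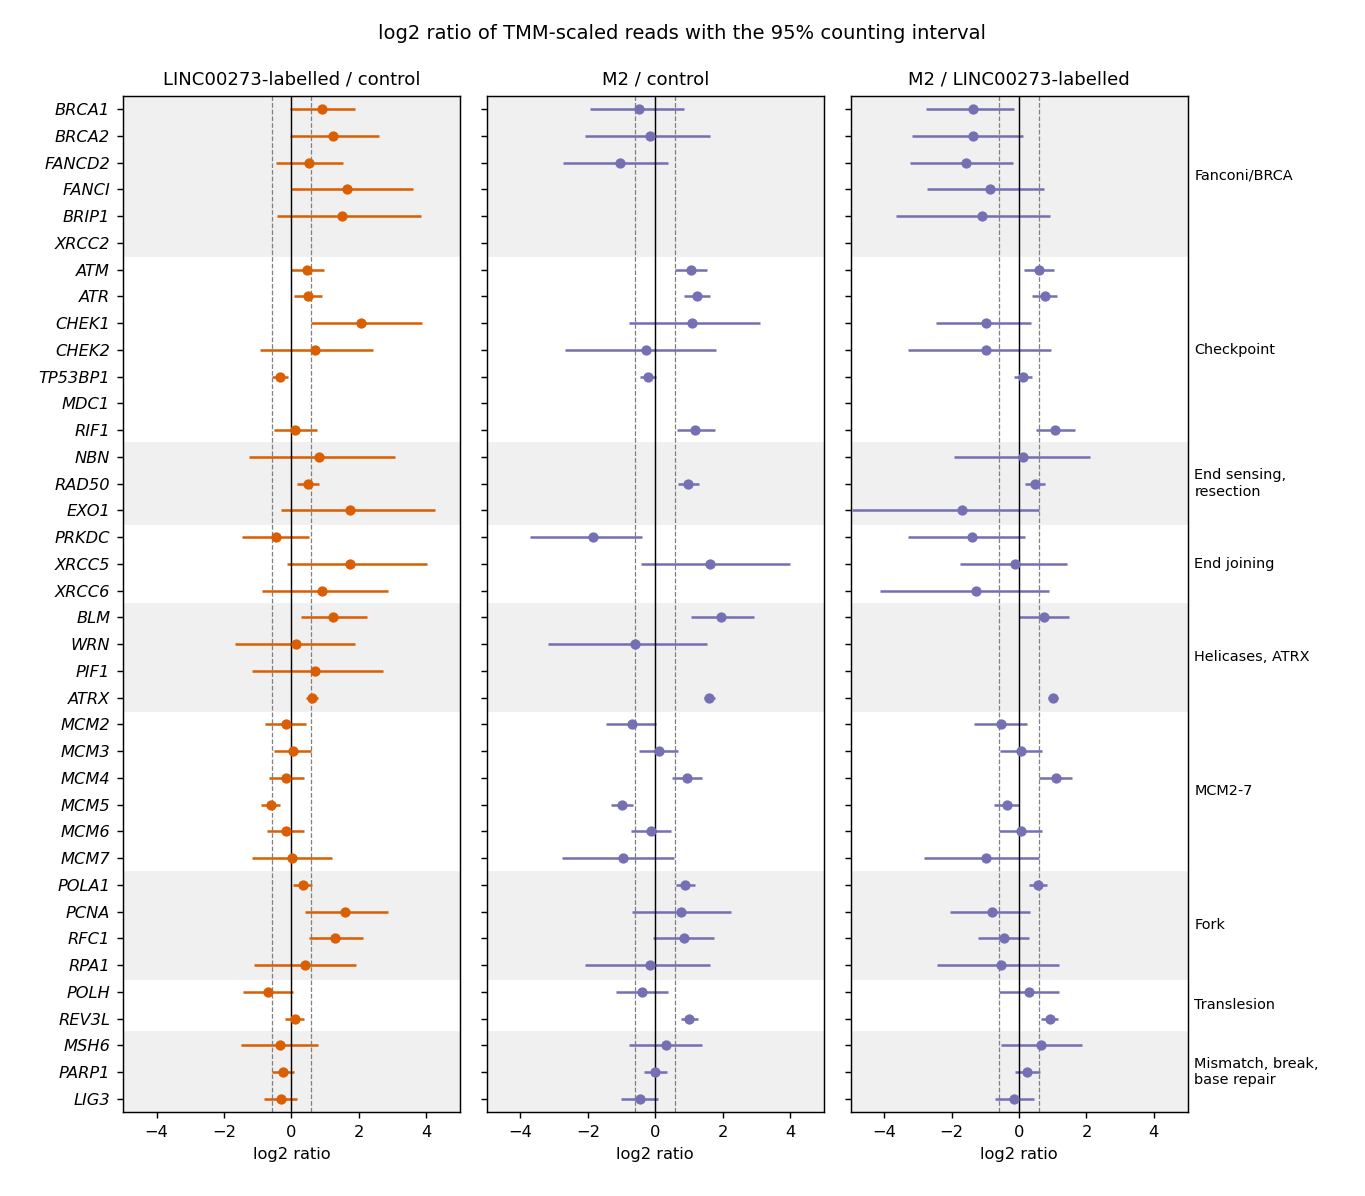
Log2 ratio of each measured gene (points) with its 95% counting interval (bars), in a panel for each comparison, with genes grouped by role; dashed lines mark a 1.5-fold difference, and genes with fewer than 20 reads over both libraries are left out. Well covered genes such as ATRX, ATR, REV3L and MCM5 have narrow intervals, and those of BRCA2, FANCI and EXO1 reach 0 in every panel that shows them.

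Among the 9 groups of members, the 6 Fanconi anaemia and BRCA genes had the largest summed ratio of the LINC00273-labelled library to the control. They held 174 reads in the LINC00273-labelled library, 56 in the M2 library and 100 in the control library, or 28.3, 12.0 and 13.9 scaled CPM. Their summed log2 ratio to the control was 1.03 (95% counting interval 0.51 to 1.56) in the LINC00273-labelled library and -0.22 (-0.94 to 0.48), or 0.04 under scaling to the total count, in the M2 library. In the M2 library against the LINC00273-labelled library it was -1.25 (-1.92 to -0.62). There all 5 measured genes were at least 1.5-fold lower, beside 21.6% of all genes and 39.7% of those with 20 to 99 reads. Relative to genes of like GC content and read level, BRCA1 stood at -1.28, BRCA2 at -1.35 and FANCD2 at -1.27. FANCI at -0.57 and BRIP1 at -0.50 were less than 1.5-fold lower on that scale. Of the 23 other genes listed for this pathway, 14 were measured in the LINC00273-labelled library against the control, where 1 was higher and 2 were lower, with a median of -0.06. In the M2 library against the LINC00273-labelled library, 0 of 9 of them were higher and 4 were lower, with a median of -0.07.

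BRCA1, the ubiquitin ligase that directs breaks towards homologous recombination, had 51 reads in the LINC00273-labelled library, 15 in the M2 library and 32 in the control library. Its log2 ratio to the control was 0.90 (-0.05 to 1.90) in the LINC00273-labelled library and -0.47 (-1.95 to 0.86) in the M2 library. The M2 library stood below the LINC00273-labelled one, with a log2 ratio of -1.38 (-2.78 to -0.16). BRCA1 had the most scaled reads in the LINC00273-labelled library, and neither treated library could be told apart from the control at this depth. BRCA2, a mediator of homologous recombination, had 34, 10 and 17 reads in the LINC00273-labelled, M2 and control libraries, a ratio to the control of 1.23 (-0.04 to 2.61) in the first. FANCD2, the clamp subunit that is ubiquitinated at crosslinks, had 43, 11 and 35 reads in the same order. Its partner in that clamp, FANCI, had 24, 10 and 9 reads. The M2 library was lower in FANCD2 than the LINC00273-labelled library, with a log2 ratio of -1.58 (-3.25 to -0.18), while FANCI stood at -0.87 (-2.73 to 0.74). Both clamp genes had the most scaled reads in the LINC00273-labelled library, where the ratio to the control was 1.65 (-0.01 to 3.61) for FANCI and 0.53 (-0.45 to 1.53) for FANCD2. BRIP1, the helicase that binds BRCA1, had 17, 6 and 7 reads in the LINC00273-labelled, M2 and control libraries. XRCC2, a homologous recombination gene, had 5, 4 and 0 reads in these libraries, and no ratio is given for it.

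**Figure D3:**
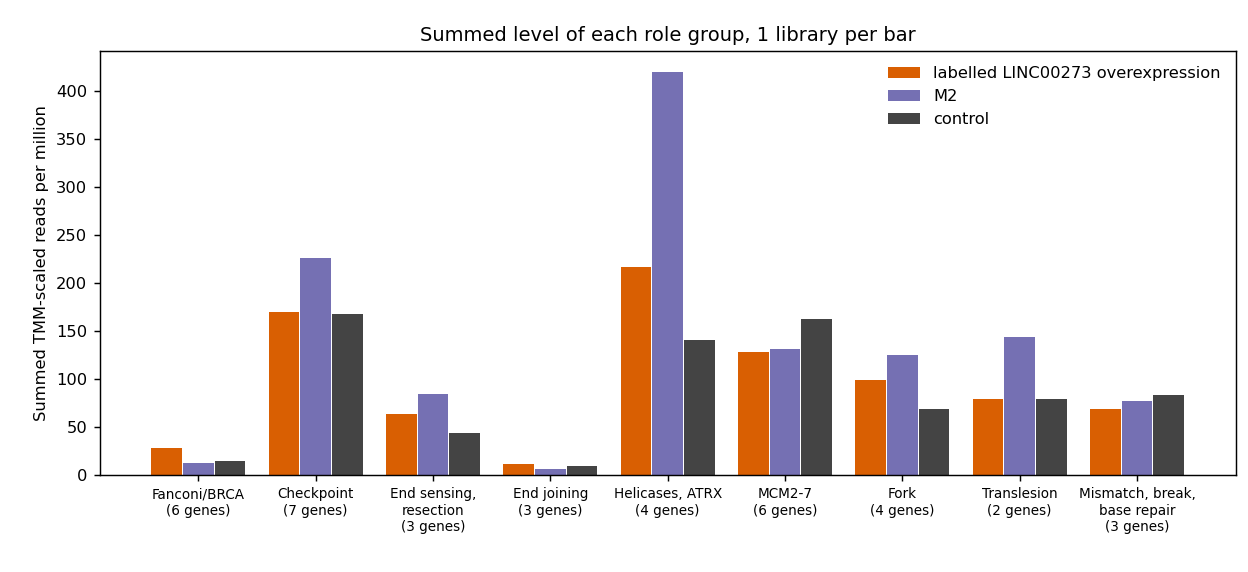
Summed level of each role group in TMM-scaled CPM, on a linear axis from 0, with 1 bar each for the LINC00273-labelled, M2 and control libraries; there are no replicates and no error bars. The Fanconi anaemia and BRCA group stands at 28.3, 12.0 and 13.9 in these libraries, and the helicase group, mostly ATRX, at 216, 420.0 and 140.3.

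The 7 checkpoint and damage-signalling genes summed to 1042 reads in the LINC00273-labelled library, 1059 in the M2 library and 1208 in the control library. Their summed log2 ratio to the control was 0.02 (-0.15 to 0.19) in the LINC00273-labelled library and 0.43 (0.26 to 0.60) in the M2 library. The members of this group did not move together. The apical kinases ATM, which answers double-strand breaks, and ATR, which answers stretches of single-stranded DNA, were both higher in the M2 library. ATM had 155 reads in the LINC00273-labelled library, 178 in the M2 library and 131 in the control library, with ratios to the control of 0.47 (-0.02 to 0.97) and 1.06 (0.59 to 1.55). ATR had 226, 291 and 189 reads in these libraries, with ratios to the control of 0.49 (0.08 to 0.90) for the LINC00273-labelled library and 1.24 (0.86 to 1.63) for the M2 library. The M2 library held 2.37-fold the control's scaled ATR reads.

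CHEK1, the kinase activated by ATR that holds cells from mitosis, had 36 reads in the LINC00273-labelled library, 14 in the M2 library and 10 in the control library. The LINC00273-labelled library was 4.23-fold above the control, a log2 ratio of 2.08 (0.60 to 3.86), the largest of any measured member in that comparison. In the M2 library the ratio was 1.11 (-0.77 to 3.11). CHEK2, the kinase activated by ATM, had 18, 7 and 13 reads in the LINC00273-labelled, M2 and control libraries. Copies of CHEK2 elsewhere in the genome held 8, 0 and 7 more, and both of its intervals against the control spanned 0. The M2 library thus held more ATR and ATM RNA than the control, and CHEK1 stood furthest from the control in the LINC00273-labelled library.

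TP53BP1, the chromatin reader that shields broken ends from resection, had 514 reads in the LINC00273-labelled library, 428 in the M2 library and 762 in the control library. Its ratio to the control was -0.34 (-0.57 to -0.10) in the LINC00273-labelled library and -0.21 (-0.46 to 0.03) in the M2 library, neither of which reached 1.5-fold, and both turned positive (0.18 and 0.04) under scaling to the total count. RIF1, which acts with TP53BP1 at those ends, went another way, with 85, 137 and 92 reads in the LINC00273-labelled, M2 and control libraries. RIF1 was 2.29-fold higher in the M2 library than in the control, a log2 ratio of 1.20 (0.64 to 1.77), and 0.12 (-0.52 to 0.75) in the LINC00273-labelled library. MDC1, the scaffold on phosphorylated H2AX, had 8, 4 and 11 reads and was measured in no comparison.

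Among the resection genes, RAD50 carried nearly all reads. RAD50, which tethers broken ends with MRE11 and NBN, had 357 reads in the LINC00273-labelled library, 380 in the M2 library and 296 in the control library. Its ratio to the control was 0.50 (0.18 to 0.83) in the LINC00273-labelled library and 0.98 (0.66 to 1.30) in the M2 library. Of its annotated exon bases 79.7% overlap exons of the genes TH2LCRR and AC116366.3 on either strand. The strand setting of the counting is not given in the sources used here, so reads of these genes cannot be told apart from its own. NBN, the partner that recruits ATM, had only 12, 10 and 8 reads in the LINC00273-labelled, M2 and control libraries. EXO1, an exonuclease that extends resection, had 17, 4 and 6 reads, and its ratio of 1.73 (-0.29 to 4.27) in the LINC00273-labelled library against the control rests on those few.

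The end-joining genes were sparse in every library, with 67 reads in the LINC00273-labelled library, 28 in the M2 library and 67 in the control library over 3 genes. PRKDC, the catalytic kinase of the pathway, had 31 reads in the LINC00273-labelled library, 9 in the M2 library and 50 in the control library. It was 3.61-fold lower in the M2 library than in the control, a log2 ratio of -1.85 (-3.70 to -0.39). The LINC00273-labelled library stood at -0.46 (-1.47 to 0.51) from the control. XRCC5 and XRCC6 encode the Ku heterodimer that PRKDC joins at broken ends. XRCC5 had 20, 14 and 7 reads and XRCC6 had 16, 5 and 10 reads in the LINC00273-labelled, M2 and control libraries. For XRCC5 the ratio to the control was 1.75 (-0.12 to 4.03) in the LINC00273-labelled library and 1.62 (-0.42 to 4.0) in the M2 library, both reaching below 0.

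The helicase and remodeller group was dominated by ATRX, which held 93.4% of its reads in the LINC00273-labelled library, 95.7% in the M2 library and 94.7% in the control library. ATRX, a remodeller that deposits histone H3.3 at repeats and at G-quadruplex-forming sequence, had 1239 reads in the LINC00273-labelled library, 1884 in the M2 library and 957 in the control library. It was 1.52-fold higher in the LINC00273-labelled library than in the control, a log2 ratio of 0.60 (0.43 to 0.78), and 3.03-fold higher in the M2 library, a log2 ratio of 1.60 (1.44 to 1.76). The M2 library also exceeded the LINC00273-labelled one, by 0.99 (0.85 to 1.14). ATRX was therefore highest in the M2 library, then in the LINC00273-labelled library, and lowest in the control.

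BLM, the RecQ helicase that dissolves crossed DNA strands, had 60 reads in the LINC00273-labelled library, 76 in the M2 library and 30 in the control library. It was 2.35-fold higher in the LINC00273-labelled library than in the control, a log2 ratio of 1.23 (0.29 to 2.23), and 3.90-fold higher in the M2 library, 1.96 (1.07 to 2.93). BLM thus ranked in the same order as ATRX across the 3 libraries. WRN, another RecQ helicase, and PIF1, a helicase that unwinds G-quadruplexes, did not share that order. WRN had 13, 6 and 14 reads and PIF1 had 14, 2 and 10 reads in the LINC00273-labelled, M2 and control libraries, and every interval of either gene spanned 0.

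The MCM genes encode the subunits of a single ring that opens the fork. The 6 genes summed to 782 reads in the LINC00273-labelled library, 614 in the M2 library and 1168 in the control library. Summed, their ratio to the control was -0.35 (-0.54 to -0.16) in the LINC00273-labelled library and -0.31 (-0.51 to -0.10) in the M2 library. These become 0.17 and -0.05 when libraries are scaled to the total count. The subunits did not move together in the M2 library. MCM5 had 344 reads in the LINC00273-labelled library, 204 in the M2 library and 616 in the control library. It was lower than in the control, with a log2 ratio of -0.61 (-0.89 to -0.34) in the LINC00273-labelled library and -0.97 (-1.31 to -0.65) in the M2 library. MCM4 had 116, 188 and 151 reads in the LINC00273-labelled, M2 and control libraries, and was higher in the M2 library by 0.94 (0.49 to 1.39) against the control and by 1.09 (0.60 to 1.58) against the LINC00273-labelled library. Within one ring, then, MCM4 was 1.92-fold higher and MCM5 1.96-fold lower in the M2 library than in the control.

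MCM2 had 87 reads in the LINC00273-labelled library, 46 in the M2 library and 115 in the control library, a ratio to the control of -0.70 (-1.47 to 0.02) in the M2 library. MCM3, with 108, 86 and 123 reads, and MCM6, with 101, 80 and 133 reads in the LINC00273-labelled, M2 and control libraries, had ratios to the control between -0.17 and 0.11. MCM7 had 26, 10 and 30 reads. For MCM2, MCM3, MCM6 and MCM7 each interval against the control spanned 0. MCM4 and PRKDC are neighbours that start 2 bases apart on opposite strands in GENCODE 29, and in the M2 library against the control they stood at 0.94 and -1.85.

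At the replication fork, PCNA and RFC1 were higher in the LINC00273-labelled library than in the control with intervals beyond 0, and POLA1 was higher in the M2 library than in the control. PCNA, the sliding clamp, had 46 reads in the LINC00273-labelled library, 20 in the M2 library and 18 in the control library. It was higher in the LINC00273-labelled library than in the control, by a log2 ratio of 1.59 (0.42 to 2.88), and stood at 0.77 (-0.68 to 2.25) in the M2 library. Processed copies of PCNA elsewhere in the genome held 34, 44 and 22 reads in the LINC00273-labelled, M2 and control libraries, and the counting may split reads between them and the gene. With its copies included PCNA had 80, 64 and 40 reads in these libraries, and the ratio to the control became 1.23 (0.42 to 2.08) in the LINC00273-labelled library and 1.30 (0.45 to 2.18) in the M2 library. The difference in PCNA between the M2 and LINC00273-labelled libraries was -0.81 (-2.05 to 0.32) for the gene alone and 0.07 (-0.65 to 0.77) with the copies.

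RFC1, the large subunit of the clamp loader, had 88 reads in the LINC00273-labelled library, 49 in the M2 library and 42 in the control library, with ratios to the control of 1.30 (0.52 to 2.12) and 0.84 (-0.06 to 1.76). POLA1, the catalytic subunit of the polymerase that extends primers, had 452, 507 and 419 reads in the LINC00273-labelled, M2 and control libraries. It was higher in the M2 library than in the control by 0.90 (0.63 to 1.17) and differed by 0.34 (0.06 to 0.62), less than 1.5-fold, in the LINC00273-labelled library. RPA1, the large subunit of the single-strand binding protein, had 19, 10 and 17 reads, and its intervals spanned 0.

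The translesion polymerases differed from each other. REV3L, the catalytic subunit of polymerase zeta, had 437 reads in the LINC00273-labelled library, 628 in the M2 library and 480 in the control library. It was 2.01-fold higher in the M2 library than in the control, a log2 ratio of 1.01 (0.76 to 1.26), and 0.10 (-0.17 to 0.37) in the LINC00273-labelled library. POLH, which copies past ultraviolet lesions, had 49, 46 and 92 reads in the LINC00273-labelled, M2 and control libraries. Its ratio to the control was -0.68 (-1.45 to 0.06) in the LINC00273-labelled library and -0.38 (-1.17 to 0.37) in the M2 library. The M2 value of REV3L was 0.38 relative to genes of like GC content, and 0.13 relative to genes of like GC content and read level. POLH had fewer scaled reads in both treated libraries, with intervals that reach 0.

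None of the members in excision, break or mismatch repair, which are PARP1, LIG3 and MSH6, was higher or lower than the control. PARP1, the sensor of single-strand breaks, had 269 reads in the LINC00273-labelled library, 244 in the M2 library and 374 in the control library. Its ratio to the control was -0.24 (-0.57 to 0.08) in the LINC00273-labelled library and 0.01 (-0.34 to 0.34) in the M2 library. The M2 value was 0.26 under scaling to the total count and 0.47 relative to genes of like GC content. LIG3, a ligase that seals such breaks, had 127, 88 and 186 reads, and MSH6, which recognises mismatched bases, had 25, 30 and 37 reads in the LINC00273-labelled, M2 and control libraries. Exons of other genes also overlap more than 10% of the annotated exon bases of LIG3 (30.5%), TP53BP1 (28.7%), MCM2 (23.6%), ATR (16.4%) and MSH6 (16.2%). All intervals of LIG3 and MSH6 spanned 0, and MSH6 stood 1.57-fold above the LINC00273-labelled library in the M2 library with an interval of -0.53 to 1.86.

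The ratios moved with the base composition of the transcripts. The members ranged from 36.3% to 61.6% GC with a median of 43.3%, where the median of all genes with at least 20 reads over the 3 libraries was 47.3%. Across the members, Spearman's rho between GC content and the log2 ratio was -0.34 (n = 36) for the LINC00273-labelled library against the control and -0.54 (n = 30) for the M2 library against the control, and across all genes it was -0.34 and -0.50. These points share the same libraries and are not independent. In the M2 library against the control, the third of members lowest in GC, at 36.3% to 41.4%, had a median of 1.04, and the third highest in GC, at 47.2% to 61.6%, had a median of -0.33. ATRX, ATR, RIF1 and REV3L belong to genes rich in A and T, and MCM5 to those rich in G and C.

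**Figure D4:**
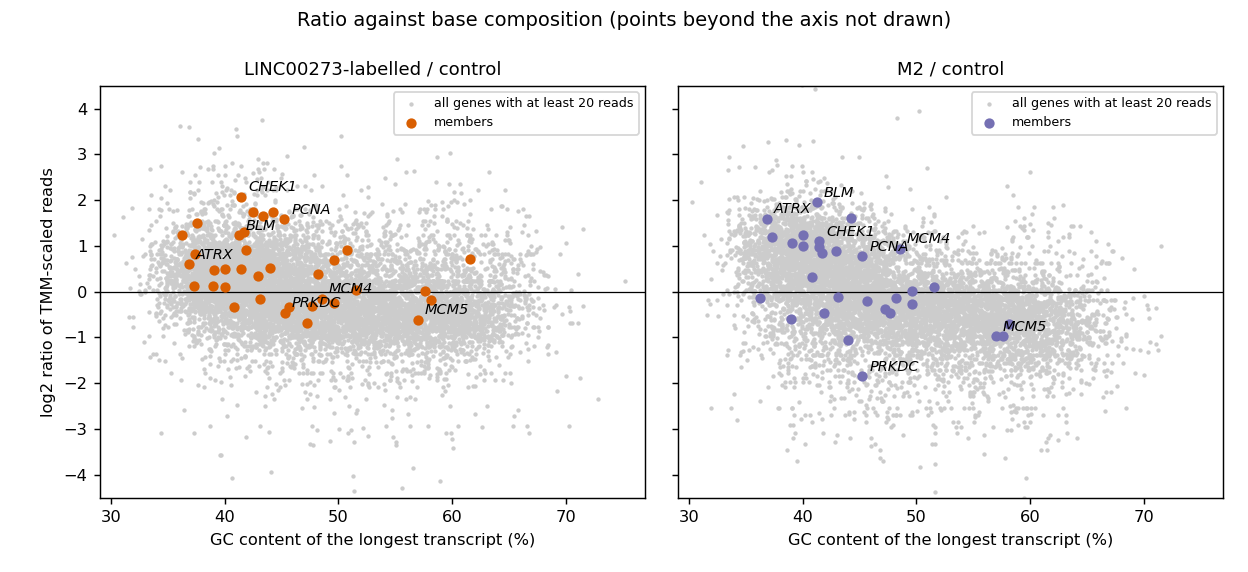
Log2 ratio against the GC content of the longest transcript in percent, for the LINC00273-labelled library (left) and the M2 library (right) against the control; coloured points are the members and grey points all genes with at least 20 reads. Against the control, members low in GC such as ATRX lie higher in the M2 library and members high in GC such as MCM5 lie lower, as do the grey points.

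Each ratio was therefore also given relative to the median of the 200 genes closest in GC content. On that scale ATRX stood at 0.25 in the LINC00273-labelled library and 0.82 in the M2 library against the control. In the M2 library POLA1 stood at 0.72, ATR at 0.59, RIF1 at 0.49, RAD50 at 0.46, REV3L at 0.38 and ATM at 0.38. Of these only POLA1 and ATR exceed 1.5-fold. BLM stood at 0.91 in the LINC00273-labelled library and 1.41 in the M2 library. CHEK1 at 1.85, PCNA at 1.55 and RFC1 at 1.07 kept most of their ratio in the LINC00273-labelled library, and PRKDC at -1.96 and MCM4 at 1.24 kept theirs in the M2 library. MCM5 stood at -0.16 in the LINC00273-labelled library and -0.45 in the M2 library. Counted on this scale, 14 of 36 members were higher and 1 lower in the LINC00273-labelled library than in the control, against 21.7% and 18.4% of all genes on that scale. Likewise, 8 of 30 were higher and 5 lower in the M2 library than in the control, near the 20.4% and 23.6% of all genes.

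**Figure D5:**
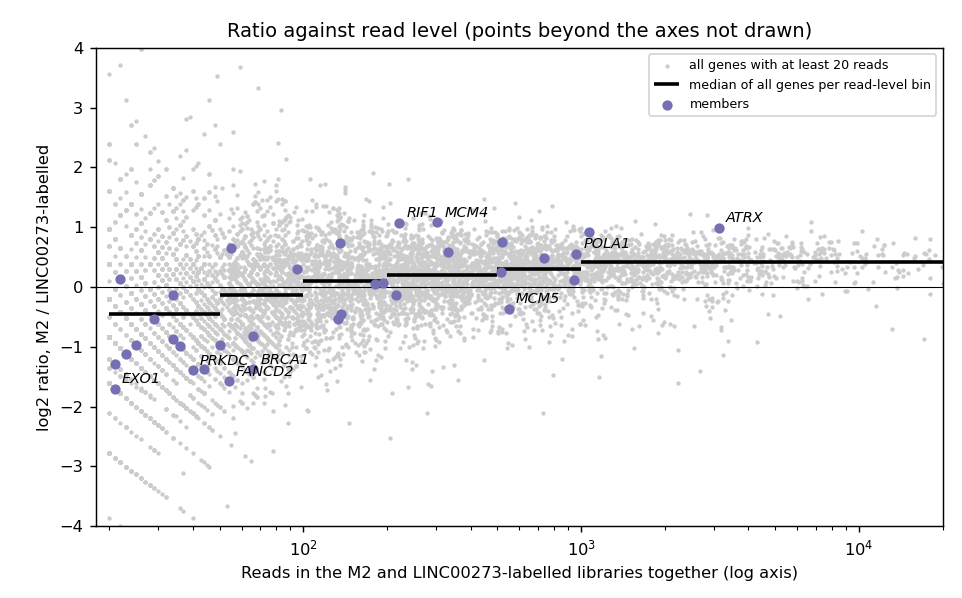
Log2 ratio of the M2 library to the LINC00273-labelled library against the reads of both together, on a log axis; coloured points are the members, grey points all genes with at least 20 reads, and black lines the median of all genes in each range of reads. Members with 20 to 99 reads lie mostly below 0 and members with 100 reads or more mostly above it.

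The rest of the pathway was read from lists of 150 further repair and replication genes, of which 149 are in the tables and 46 had fewer than 20 reads over the 3 libraries. In the LINC00273-labelled library against the control, 23 of 91 measured genes were higher and 12 were lower, with a median of 0.09. In the M2 library against the control, 27 of 78 were higher and 18 were lower, with a median of 0.26. In the M2 library against the LINC00273-labelled library, 11 of 80 were higher and 16 were lower. The shares of all genes are those given above for each comparison. Relative to genes of like GC content, the medians were 0.09 for the LINC00273-labelled library and 0.16 for the M2 library against the control. In the M2 library against the control, that centring moved list medians both up and down. The MCM list went from 0.86 to 0.25 and the translesion list from 0.73 to 0.11. The helicase list went from -0.26 to 0.17 and the Fanconi anaemia list from -0.30 to -0.44. The ratios of single list genes below are TMM-scaled and not centred on GC content. The part of base composition in each of them was not tested.

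USP1, the protease that removes ubiquitin from FANCD2 and PCNA, had 587 reads in the LINC00273-labelled library, 625 in the M2 library and 396 in the control library. It was higher than the control by 0.80 (0.53 to 1.07) in the LINC00273-labelled library and 1.28 (1.02 to 1.54) in the M2 library. WDR48, the cofactor that activates USP1, had 222, 230 and 436 reads in these libraries and was lower in the LINC00273-labelled library, at -0.74 (-1.09 to -0.41), with -0.30 (-0.64 to 0.03) in the M2 library. Without centring on GC content, the protease and its cofactor stood on opposite sides of the control in the LINC00273-labelled library.

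H2AFX, the histone variant phosphorylated by ATM and ATR, had 1515 reads in the LINC00273-labelled library, 1409 in the M2 library and 3063 in the control library. Its ratio to the control was -0.78 (-0.91 to -0.66) in the LINC00273-labelled library and -0.50 (-0.63 to -0.37), less than 1.5-fold, in the M2 library. DHX36, a helicase that resolves G-quadruplexes, had 118, 114 and 63 reads in the LINC00273-labelled, M2 and control libraries. DHX9, a helicase for RNA and DNA structures, had 871, 902 and 496 reads in these libraries. Both were higher than the control, DHX36 by 1.14 (0.49 to 1.81) in the LINC00273-labelled library and 1.48 (0.82 to 2.15) in the M2 library, and DHX9 by 1.04 (0.82 to 1.27) and 1.48 (1.26 to 1.71). DAXX, the histone chaperone that works with ATRX, had 68, 36 and 112 reads in the LINC00273-labelled, M2 and control libraries, and was lower in the M2 library, at -1.02 (-1.87 to -0.23). Without that centring, ATRX and its chaperone stood on opposite sides of the control in the M2 library. Relative to genes of like GC content, ATRX stood at 0.82 there.

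ORC5, a subunit of the complex that marks replication origins, had 270 reads in the LINC00273-labelled library, 314 in the M2 library and 249 in the control library, and was higher in the M2 library by 0.96 (0.61 to 1.31). SHPRH, a ubiquitin ligase for PCNA, had 117, 128 and 99 reads in these libraries and was higher in the M2 library by 0.99 (0.43 to 1.56). ERCC2, the helicase of nucleotide excision repair, had 76, 84 and 203 reads in the LINC00273-labelled, M2 and control libraries. Its ratio to the control was -1.19 (-1.76 to -0.63) in the LINC00273-labelled library and -0.65 (-1.21 to -0.12) in the M2 library.

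The authors' deposited table of significant genes for the LINC00273-labelled library lists 809 of the 57773 genes and that for M2 lists 670. Of the 38 members, 0 are in either. With so small a share of all genes listed, a count of 0 among 38 says little about the members. Of the 149 other repair and replication genes, 6 are in each table. In the authors' deposited tables the smallest listed log2 ratio above 0 is 2.18 for the LINC00273-labelled library and 2.15 for M2, above every member's ratio given here for that library. Below 0, the listed ratio nearest to 0 is -1.87 for the LINC00273-labelled library and -2.09 for M2, below every member's ratio given here for that library.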

How the data were processed

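Total RNA was extracted with TRIzol, depleted of ribosomal RNA with RiboCop and sequenced as 150-bp pairs, per the labels' protocols. Per the submitters' processing notes, the build was hg19 and the tools included STAR, Bowtie2 2.2.4, Trimmomatic, DESeq2 and featureCounts 1.5.2. The counter's settings, strand and treatment of multimapping reads were not given in the sources used here. The signal deposited by the authors is a read count divided by 1 size factor per library. Division by the step gave whole counts for 100% of values (tolerance 0.01), although counts had been assumed in planning. Most fragments were counted as 2 reads, so exact (Clopper-Pearson) 95% intervals use reads divided by 2, and floors are 3 fragments. TMM scaling came from edgeR 4.0.16 under R 4.3.3, with no test, after a check on simulated data. The log2 ratios listed by the authors in their deposited tables of significant genes are quoted as theirs. GC content and length are those of the longest GENCODE 29 transcript by Ensembl ID.

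The members and lists were chosen with earlier results of these data known. All members are named, and of the other list genes those at the ends of each list's ratios among genes with at least 100 reads, with a choice among these after their values were seen. Alternatives changed the scaling, read minimum, fold, prior, and centring on GC content, length or read level. One gene of these lists is not reported here.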

Additional observations from a re-analysis of the deposited data

How the results depend on the processing

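Under scaling to the total count the all-gene median shifted by 0.52, 0.26 and -0.26 on the log2 scale in the LINC00273-labelled library against control, M2 against control and M2 against LINC00273-labelled. It turned the sign of 8, 4 and 5 members. With it the LINC00273-labelled library had 24 members higher and 0 lower than the control with a median of 1.0 (43.0%, 7.23% and 0.44 for all genes). The M2 median against the control was 0.31 (0.11 for all genes). M2 against LINC00273-labelled had 4 higher and a median of -0.40 (7.85% and -0.16 for all genes). With a minimum of 100 reads fewer genes were measured, 17 members in each comparison. The LINC00273-labelled library had 2 higher (16.6% of all genes) and 2 lower (26.7%), with a median of 0.044 (-0.18 for all genes). M2 against the control had 9 higher (29.4%) and 2 lower (23.1%), with a median of 0.90 (0.009 for all genes). M2 against LINC00273-labelled had 7 higher (20.2%) and 0 lower (6.17%), and its median reversed to 0.48 (0.27 for all genes). A 2-fold threshold left 9 higher and 0 lower in LINC00273-labelled against control (9.45% and 9.33% of all genes), 8 and 2 in M2 against control (13.5% and 16.4%), and 2 and 7 in M2 against LINC00273-labelled (4.65% and 12.2%). Centring on GC content gave 1 lower in the LINC00273-labelled library (18.4% of all genes), 8 higher in M2 against control (20.4%), and 3 higher in M2 against LINC00273-labelled (11.7%), and with transcript length added the M2 counts were 6 (19.9%) and 4 (11.6%) higher. DESeq2 size factors left 1 member lower in the LINC00273-labelled library against the control (22.9% of all genes). Added after seeing the data, the deposited size factors also left 1 lower there (21.6%). Centring on GC content and read level, also added, gave 1 lower there (19.0%), and 6 higher and 2 lower in M2 against control (19.7% and 21.8%). In M2 against LINC00273-labelled it gave 4 higher and 9 lower (14.3% and 16.5%). The cause of these shifts was not tested. No paired analysis was possible because each condition has 1 library. Depth limits the members with fewer than 20 reads, whose ratios have intervals several log2 units wide.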

Other observations

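Markers of dividing cells, chosen as a list with earlier results known, were uneven. Of 12 measured, 2 were higher and 2 lower in the LINC00273-labelled library than in the control, and of 10 measured, 3 were higher and 4 lower in the M2 library. The shares of all genes were 21.7% higher and 25.2% lower in the LINC00273-labelled library and 24.8% and 31.4% in the M2 library. TOP2A, the topoisomerase that untangles replicated chromosomes, had 2541 reads in the LINC00273-labelled library, 3182 in the M2 library and 1814 in the control library. The nucleotide synthesis genes TYMS and TK1, which are usually abundant in cycling cells, had 0, 1 and 0 reads and 0, 1 and 1 reads in these libraries. MKI67, a nuclear protein of cycling cells, had 17, 2 and 18 reads.

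Of the targets of p53, the transcription factor downstream of ATM and ATR that is mutated in MDA-MB-231 cells, 1 of 10 measured was higher and 3 were lower in the LINC00273-labelled library than in the control, and 3 of 9 were higher and 2 lower in the M2 library, beside the same shares of all genes. GADD45A, a stress-response gene, had 266 reads in the LINC00273-labelled library, 521 in the M2 library and 762 in the control library. CDKN1A, the inhibitor of cyclin-dependent kinases, had 1, 2 and 4 reads, and MDM2, the ligase that degrades p53, had 194, 244 and 204 reads in these libraries.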
